A study of Mus musculus with 8 samples.

Results

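The intermediate filament genes of glia and neurons were followed in mouse spinal cord after a contusion, a bruising injury caused by a blunt blow. The genes were Gfap, Vim, Nes, Synm and Des, whose proteins form the filaments of astrocytes, progenitors, vessels and muscle, and Nefl, Nefm, Nefh, Ina and Prph, whose proteins form those of neurons. All mRNA probes with a RefSeq mRNA accession whose gene name matched one of these 10 genes were taken, which gave 22 of 47074 mRNA probes. All 22 were well above background on all 8 arrays, and all 10 genes were among the 18198 mRNAs tested.

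The contusion group was 4 female mice, 8 weeks old, with a contusion injury of the spinal cord, and the control group was 4 female mice of the same age. Strain and impact settings were not given in the sources used here. The series' design text places the tissue at segments T9 to T10 around the injury, 3 days after it, but the sample descriptions of contusion replicates 1, 2, 3 and 4 give 3, 4, 5 and 6 days. The controls are a sham group in the design text and normal cord in the sample descriptions. Each sample was total RNA on 1 Agilent 1-colour (Cy3) array. The arrays lay on 2 slides: contusion replicate 1 and control replicates 2, 3 and 4 on slide 1, and contusion replicates 2, 3 and 4 and control replicate 1 on slide 2. Among the contusion samples, slide and a described day later than 3 cannot be told apart.

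Intermediate filaments are ropes of coiled-coil proteins that give a cell its resistance to stretch. Astrocytes build them from GFAP and vimentin, with nestin and synemin as larger partners that are taken into those filaments, and a rise of GFAP and vimentin is the textbook mark of reactive astrocytes. Neurons build them from the light, medium and heavy neurofilament proteins and alpha-internexin, which set the calibre of large axons, and peripherin joins them mainly in neurons that send axons into the periphery. Vimentin and nestin are not specific to glia: vimentin is abundant in macrophages, fibroblasts and endothelium, and nestin also marks progenitors and growing vessels.

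A level below is the log2 processed intensity of a probe minus the 75th percentile of its array, so that 0 is the 75th percentile. The brightest probe stands for a gene unless another is named. Each log2 difference is the contusion mean minus the control mean, ± its standard error, with n = 4 arrays per group, and adjusted p-values are from limma with Benjamini-Hochberg adjustment over all 89105 features on the arrays. A gene is said to be called, higher or lower, where the adjusted p was under 0.05. Levels of different probes were not set against each other as amounts of mRNA.

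The 2 classes of filament genes went opposite ways. Of the glial and mesenchymal genes 4 of 5 were called higher in contused cord (Gfap, Vim, Nes and Des) and Synm was not called, while all 5 neuronal genes were called lower. Over all mRNAs 51.1% were called, 25.8% higher and 25.3% lower, so that a call by itself was common on these arrays. The values of the groups did not overlap for 9 of the 10 genes, against 51.7% of all mRNAs. The median difference was 1.71 over the glial and mesenchymal genes, -0.72 over the neuronal genes and 0.00 over all mRNAs.

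**Figure D1:**
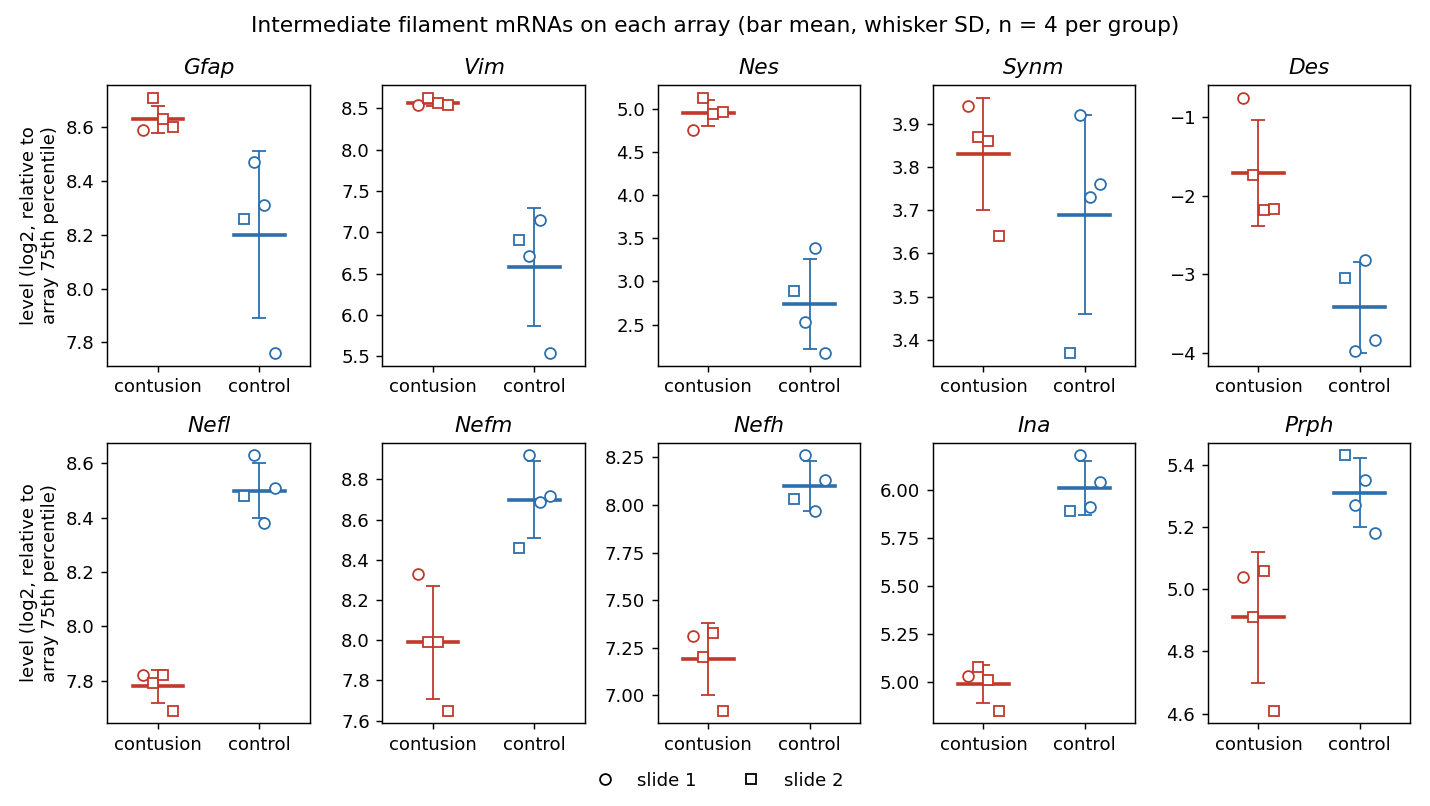
Level of each intermediate filament mRNA (log2, relative to the array's 75th percentile) on each array, contusion left and control right; points are arrays, their shape gives the slide, bars are means and whiskers SDs (n = 4 per group). The contusion arrays lie above all control arrays for Gfap, Vim, Nes and Des and below them for the 5 neuronal genes, and the groups overlap for Synm.

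Vim encodes vimentin. Its levels were 8.54, 8.63, 8.57 and 8.54 in contusion replicates 1 to 4, against 6.91, 6.71, 7.15 and 5.54 in control replicates 1 to 4. The contused cords lay within 0.04 (SD) of their mean of 8.57, while the controls spread with an SD of 0.71 around 6.58, control replicate 4 being the lowest. The difference was 1.99 ± 0.31, a 3.98-fold higher level (adjusted p = 0.00147, 95% interval 1.28 to 2.70). In absolute size it ranked 553 among 18198 mRNAs. A second, dimmer probe gave 2.50 ± 0.30 (adjusted p = 0.000372), with an SD of 0.11 in contused cords.

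Nes encodes nestin, the filament protein of neural progenitors and of some endothelial cells. It had the largest difference of the 10 genes: its levels were 4.76, 5.13, 4.94 and 4.97 in contused cords, against 2.89, 2.53, 3.39 and 2.17 in control cords. Every contused cord lay more than 1 log2 unit above every control. The difference was 2.21 ± 0.24, or 4.62-fold (adjusted p = 0.000305), and the second Nes probe, which shares a run of 43 of its 60 bases with the first, gave 2.13 ± 0.23.

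Gfap, the gene of glial fibrillary acidic protein, had a smaller difference, and its size depended on the probe. The brightest probe (NM_010277) had levels of 8.59, 8.71, 8.63 and 8.60 in contused cords, against 8.26, 8.47, 8.31 and 7.76 in control cords. The groups did not overlap, but the gap between the lowest contused and the highest control array was smaller than the spread of the controls. The difference was 0.43 ± 0.14 (1.35-fold, adjusted p = 0.0432). This call was lost in 12 of 19 alternative settings, with adjusted p-values up to 0.168 (without contusion replicates 1 and 2) and of 0.118 with the slide as a block. Without control replicate 4 the difference was 0.28 and was still called (adjusted p = 0.0310).

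The other 2 Gfap probes showed about a doubling on the linear scale, 1.96-fold and 1.90-fold. The probe designed to NM_001131020, another transcript variant of Gfap in RefSeq, had levels of 7.75, 7.83, 7.70 and 7.77 in contused cords, against 6.96, 6.91, 6.94 and 6.35 in control cords (0.97 ± 0.14, adjusted p = 0.000779). The remaining probe had levels of 5.08, 4.70, 4.90 and 4.79 in contused cords, against 3.91, 4.09, 4.31 and 3.45 in control cords (0.93 ± 0.18, adjusted p = 0.00358). Both were called in 17 of 17 alternative settings, at 0.82 to 1.02 and at 0.76 to 1.05. The brightest probe had processed intensities of 82600 to 95000 in contused cords and 54500 to 78600 in control cords, among the brightest values of the 22 probes, and no Gfap spot was flagged as saturated. Whether brightness or transcript variant bears on the smaller difference was not tested.

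Probes also differed in size of effect for Des and Prph, described below, and a coding-sequence probe of each is shown for that reason. The brighter Des probe lies at chr1:75363404-75363629 (mm9, the build named in the file headers, plus strand). Its first 56 bases are given, with the stop codon that ends the desmin reading frame in capitals. The dimmer Prph probe lies at chr15:98887297-98887356 (mm9, plus strand).
Des: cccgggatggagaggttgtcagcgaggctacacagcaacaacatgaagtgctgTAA
Prph: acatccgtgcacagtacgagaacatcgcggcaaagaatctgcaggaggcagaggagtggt

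Synm encodes synemin, a filament protein that links vimentin, desmin or GFAP filaments to other structures. It was the member that did not pass the test: its levels were 3.94, 3.87, 3.86 and 3.64 in contused cords, against 3.37, 3.92, 3.73 and 3.76 in control cords. The groups overlapped, and the difference was 0.13 ± 0.12 (adjusted p = 0.443, 95% interval -0.15 to 0.42), an interval that leaves out a rise of the size seen for Vim or Nes. Without control replicate 1 the difference was 0.02, without control replicate 2 it was 0.21 and without contusion replicate 4 it was 0.20, and with the slide as a block it was 0.28 (adjusted p = 0.0820). The other Synm probes gave 0.19 ± 0.07 and 0.23 ± 0.09 (adjusted p = 0.0671 and 0.0593).

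Des encodes desmin, the filament protein of skeletal, cardiac and smooth muscle and of pericytes. It was dim: its levels were -0.75, -1.74, -2.18 and -2.17 in contused cords, against -3.05, -3.97, -2.81 and -3.84 in control cords. All contused cords lay above all controls, with contusion replicate 1 the highest. The difference was 1.71 ± 0.38 (3.26-fold, adjusted p = 0.00832), and it was 2.79 on slide 1 and 1.02 on slide 2. Background correction with normexp (offset 50) and quantile normalization gave a smaller limma difference, 0.64 (adjusted p = 0.0157). The processed intensities of this probe were 13.6 to 146, so adding an offset of 50 by itself makes its log2 difference smaller.

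The other Des probe, with processed intensities of only 13.1 to 18.2 in contused cords and 7.49 to 17.5 in control cords, gave 0.15 ± 0.27 (adjusted p = 0.677, 95% interval -0.46 to 0.77). Its interval and that of the brighter probe, 0.83 to 2.58, do not overlap. Within slides the dimmer probe was at -0.06 on slide 1 and -0.13 on slide 2, so its direction is not settled. The Des result therefore rests on 1 mRNA probe and on circRNA probes given below.

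**Figure D2:**
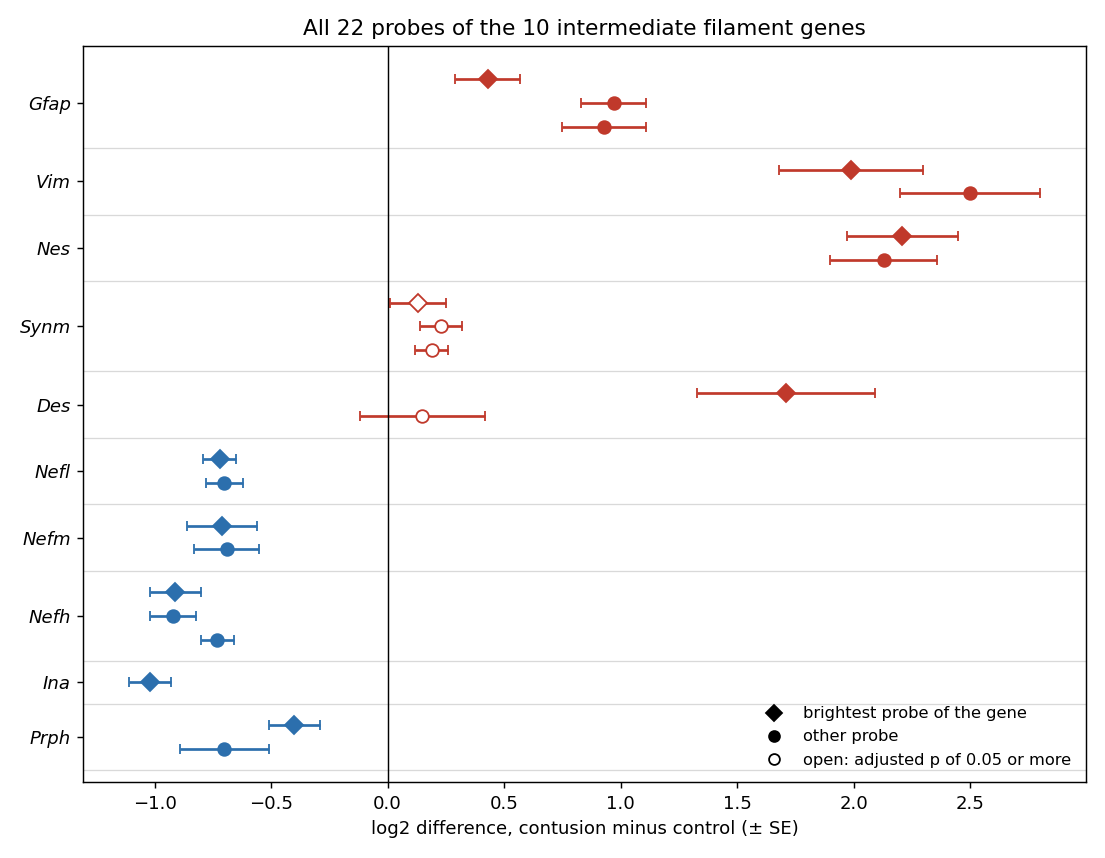
Log2 difference, contusion minus control, with its standard error for all 22 mRNA probes of the 10 genes (n = 4 arrays per group); diamonds are the brightest probe of a gene, circles the other probes, and open symbols have an adjusted p of 0.05 or more. Probes of a gene agree in direction, except that the direction of the dimmer Des probe (0.15 ± 0.27) is not settled. Gfap (0.43 to 0.97) and Des (0.15 and 1.71) differ most in size.

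Nefl, Nefm and Nefh encode the light, medium and heavy neurofilament proteins. Nefl levels were 7.82, 7.79, 7.82 and 7.69 in contused cords, against 8.48, 8.63, 8.38 and 8.51 in control cords, and the difference was -0.72 ± 0.07 (0.606-fold, adjusted p = 0.000234). Nefm levels were 8.33, 7.99, 7.99 and 7.65 in contused cords, against 8.46, 8.92, 8.69 and 8.72 in control cords (-0.71 ± 0.15, 0.613-fold, adjusted p = 0.00711). Nefm was the least even of the triplet, with contusion replicate 1 only a little below control replicate 1 and contusion replicate 4 the lowest. Nefh levels were 7.31, 7.20, 7.33 and 6.92 in contused cords, against 8.03, 8.26, 7.97 and 8.13 in control cords (-0.91 ± 0.11, 0.533-fold, adjusted p = 0.000474). Contusion replicate 4 was the lowest array for the brightest probe of each of the 3 genes. All 7 probes of the triplet were called lower, at -0.92 to -0.69.

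Ina encodes alpha-internexin, a filament protein of central neurons. It had the largest decrease of the 10 genes, with levels of 5.03, 5.08, 5.01 and 4.85 in contused cords, against 5.89, 6.18, 5.91 and 6.04 in control cords. The groups were far apart relative to their SDs of 0.10 and 0.14, and the difference was -1.02 ± 0.09 (0.495-fold, adjusted p = 0.000160). Ina ranked 1877 among 18198 mRNAs by absolute size of the difference.

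Prph encodes peripherin, which in the cord is found mainly in motor neurons. Its levels were 5.04, 4.91, 5.06 and 4.61 in contused cords, against 5.43, 5.27, 5.35 and 5.18 in control cords. The difference, -0.40 ± 0.11 (0.758-fold, adjusted p = 0.0223), was the smallest of the neuronal genes, and the groups lay close together without overlapping. The call was lost in 4 of 19 settings: when slide was a block (adjusted p = 0.0610), when control replicate 1 (0.0507) or control replicate 3 (0.0529) was left out, and when contusion replicates 1 and 2 were left out together (0.0563). The coding-sequence probe shown above gave -0.70 ± 0.19 (adjusted p = 0.0186).

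Over probes, 8 were called higher, 10 lower and 4 not (the 3 Synm probes and the dimmer Des probe). Of all mRNA probes kept, 53.6% were called, 26.5% higher and 27.1% lower. For 19 of the 22 probes no array of one group fell within the range of the other, as for 53.3% of all mRNA probes. Within each slide, where 1 array of one group stood against 3 of the other, every brightest probe kept its direction. The differences on slide 1 and slide 2 were 2.07 and 1.67 for Vim, 2.07 and 2.12 for Nes, 0.41 and 0.39 for Gfap, and 0.14 and 0.42 for Synm. They were -0.69 and -0.72 for Nefl, -0.44 and -0.58 for Nefm, -0.81 and -0.88 for Nefh, -1.02 and -0.91 for Ina, and -0.23 and -0.56 for Prph. The array measures mRNA of the whole tissue, so fewer cells of a type and less mRNA per cell cannot be told apart in any of these differences.

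The ratios between members were compared on each array, since a ratio does not depend on the scaling between arrays. Of the 20 ratios within the 2 classes, 11 did not overlap between the groups, each with the smallest two-sided exact permutation p that 4 against 4 arrays can give, 0.0286. After Benjamini-Hochberg adjustment over the 20 ratios these came to 0.0519, so none was under 0.05. Of single mRNAs 51.7% did not overlap, and the share among ratios of other gene pairs was not computed. The log2 ratio of the Gfap to the Vim probe was 0.06 ± 0.01 in contused cords and 1.62 ± 0.47 in control cords (SD, n = 4 each), a change of -1.56. In contused cords both probes were very bright, with processed intensities of 82600 to 95000 for Gfap and 79100 to 91700 for Vim. Whether brightness bears on this ratio or its small SD was not tested. The ratio of Nes to Synm was 1.12 ± 0.23 in contused cords and -0.95 ± 0.63 in control cords, a change of 2.07. The Vim to Nes ratio changed by -0.22, with overlapping groups (exact permutation p = 0.314, n = 4 each).

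Among the neuronal genes the ratios moved less. Nefl to Nefm was -0.21 ± 0.23 in contused cords and -0.20 ± 0.15 in control cords, a change of -0.02 with overlapping groups. Nefl to Ina was 2.79 ± 0.06 in contused cords and 2.49 ± 0.06 in control cords, and Ina to Prph was 0.08 ± 0.14 in contused cords and 0.70 ± 0.22 in control cords. In both of these the groups did not overlap, with Ina lower relative to its partner after contusion. A change of such a ratio depends on the probe, as the Gfap and Prph probes show.

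The labelled tissue was checked against marker lists for the cell types a cord sample can hold. Oligodendrocyte and neuron markers were well above background on all 8 arrays (Mbp, the myelin basic protein gene, averaged 9.02 in contused and 9.20 in control cords). The values of the lists that move with members are given next, and their part in the members' differences was not tested. Counts of called markers stand against 25.8% of all mRNAs called higher and 25.3% called lower.

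Macrophage markers (Cd68, Msr1, Adgre1 and 4 others) were called higher in 7 of 7 genes, with a median difference of 2.46. Their mean level was 4.72, 4.48, 4.64 and 4.73 in contused cords, against 2.62, 1.92, 2.57 and 1.05 in control cords. Control replicate 4 was thus the lowest for these markers as for Vim and Gfap. After each group's mean was subtracted, the Vim level had a Pearson correlation of 0.94 with this list over the 8 arrays, and the Gfap level one of 0.68. Gfap was nearly as close to the astrocyte list (0.64) and the ependymal list (0.61). Vim also correlated at 0.73 with the list of dividing cells and at 0.67 with the endothelial list. In contused cords the SD was 0.04 for Vim and 0.05 for Gfap, against 0.71 and 0.31 in control cords. The correlations of Vim and Gfap therefore rest mostly on the control arrays. All these correlations are descriptions of 8 arrays that share their scaling and the same RNA.

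Endothelial markers were called higher in 5 of 6 genes, with mean levels of 3.18, 3.32, 3.19 and 3.29 in contused cords, against 2.44, 2.14, 2.59 and 2.18 in control cords. Nes had its highest correlation with this list, 0.93 after subtraction of the group means, and one of 0.81 with the macrophage list. Markers of dividing cells were called higher in 5 of 6 genes, with a median of 3.47 and mean levels of 2.98 to 3.64 in contused cords, against -0.27 to 1.40 in control cords.

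Astrocyte markers other than Gfap did not move one way: 2 of 9 were called higher (Aldh1l1 at 0.88 ± 0.08 and Aqp4 at 0.47 ± 0.10) and 5 lower, among them the glutamate transporter genes Slc1a2 (-0.67 ± 0.09) and Slc1a3 (-0.35 ± 0.06). Their mean level was 6.15 to 6.19 in contused cords, against 6.34 to 6.51 in control cords. The median over the list was -0.35, so the higher Gfap, Vim and Nes levels stood beside lower levels of most of the astrocyte genes on the list.

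Skeletal muscle markers were uneven between arrays: their mean level was 4.02, 2.17, 0.14 and 0.05 in contused cords, against 1.25, -0.46, 0.49 and -0.09 in control cords. None of the 9 was called by limma in either direction, 1 had an unadjusted p under 0.05, and the smallest adjusted p was 0.0615, for Tnni2. Contusion replicates 1 and 2, the highest for muscle markers, were also the highest for Des, and the deviations of Des and of the list correlated at 0.88. Without both of these arrays, which leaves contusion arrays on slide 2 only, the limma difference of Des was 1.24 (adjusted p = 0.0428). Contusion replicates 3 and 4 had muscle means of 0.14 and 0.05, within the range of the control cords, and Des levels of -2.18 and -2.17, above all controls. Whether muscle tissue bears on the Des difference was not tested.

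Smooth muscle and pericyte markers were called higher in 5 of 8 genes, with mean levels of 3.14 to 3.22 in contused cords, against 2.28 to 2.62 in control cords. The list's largest difference was that of Tagln, the transgelin gene, at 2.31 ± 0.29. Desmin is also a protein of these cells. The correlation of Des with this list after subtraction of the group means was 0.58. That value was not particular to these cells: Des correlated at 0.54 with the macrophage and Schwann cell lists, and at 0.51 with the fibroblast and endothelial lists.

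Neuron markers were called lower in 8 of 8 genes, with a median of -0.64, next to the neuronal filament median of -0.72. Their mean level was 5.09, 5.06, 5.01 and 4.86 in contused cords, against 5.61, 5.75, 5.60 and 5.68 in control cords. The correlation with the list was 0.91 for Nefh and for Ina, 0.88 for Nefm, 0.83 for Nefl and only 0.47 for Prph. For Ina it was not particular to neuron markers: Ina correlated at 0.90 with the oligodendrocyte list and at 0.95 with the axonal transport list given below. Nefh correlated at 0.64 and 0.75 with those lists. Synm, counted here with the glial and mesenchymal genes, correlated at 0.75 with the neuron list. With the oligodendrocyte and axonal transport lists Synm correlated at 0.86 and 0.91. Motor neuron markers were called lower in 5 of 6 genes (Chat, the acetylcholine-synthesizing enzyme, at -0.77 ± 0.07), with a median of -0.78. Of the dorsal root neuron markers 1 of 6 tested was called, Avil at 1.33 ± 0.09, and the list's mean level was -3.79 to -3.08 in contused cords, against -4.25 to -3.25 in control cords.

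Fibroblast markers were called higher in 2 of 6 genes and had a median difference of 1.06 (0.47 to 1.81), with mean levels of 4.87 to 5.29 in contused cords, against 3.07 to 5.14 in control cords, control replicate 3 being the highest control. Ependymal markers were called lower in 2 of 6 genes and oligodendrocyte markers in 1 of 6. No Schwann cell marker of 6 was called by limma, and 0 had an unadjusted p under 0.05, with mean levels of 1.45 to 2.37 in contused cords, against -0.29 to 3.35 in control cords.

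**Figure D3:**
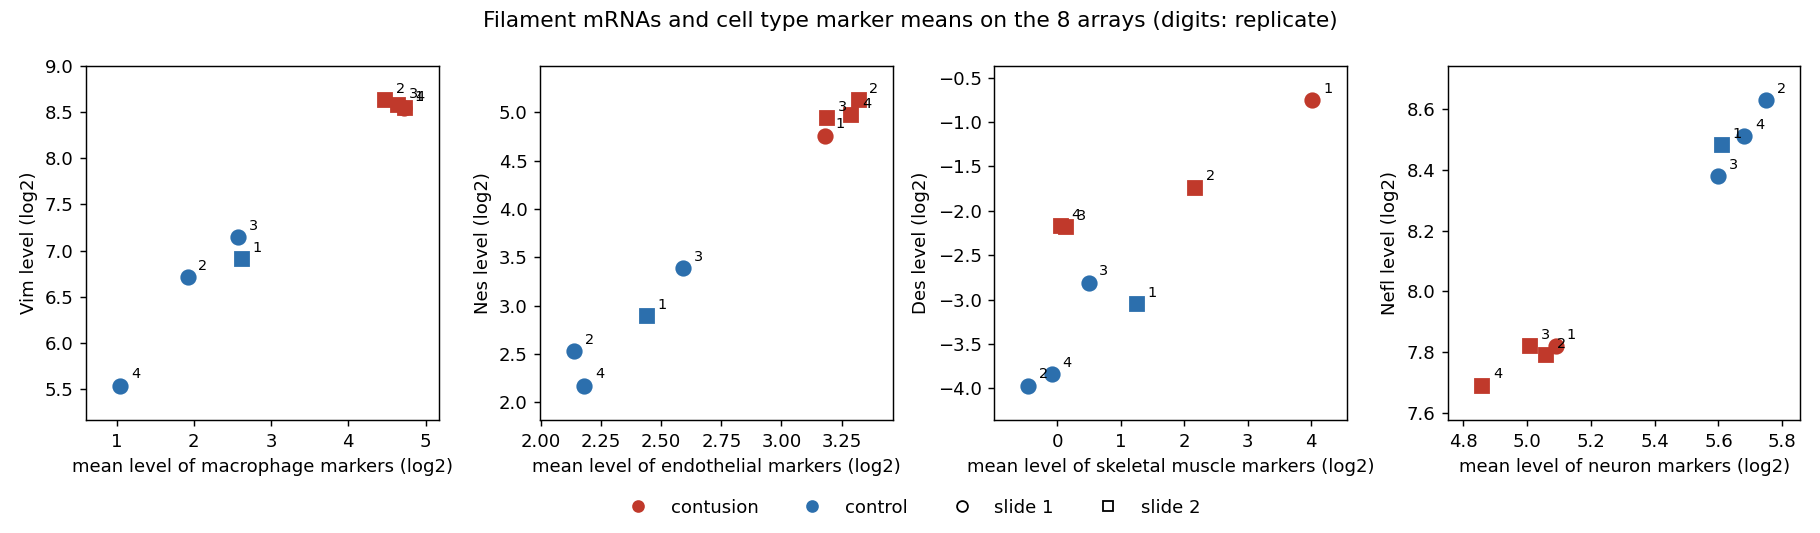
Level of Vim, Nes, Des and Nefl (vertical, log2) against the mean level of macrophage, endothelial, skeletal muscle and neuron markers (horizontal, log2) on the 8 arrays; red is contusion, blue control, the shape gives the slide and the digit the replicate. Contusion replicates 1 and 2 stand apart in the muscle panel, with means of 4.02 and 2.17, while in the other panels the groups form separate clusters.

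The genes that act on or with the filaments were examined in 6 further lists. Their counts stand against 51.1% of all mRNAs called, 25.8% higher and 25.3% lower. The nuclear lamins, the intermediate filaments of the nucleus, were called higher in 3 of 3 genes: Lmnb1 at 1.55 ± 0.14, Lmna at 0.65 ± 0.11 and Lmnb2 at 0.30 ± 0.07. Of 11 keratins, lens filament genes and Sync, 1 was called higher (Bfsp2, 0.45 ± 0.16, with overlapping groups) and 2 lower (Krt8, -0.82 ± 0.13, and Krt14, -0.44 ± 0.08), and the median was 0.05. Of the 11, 8 were not called, and 7 had an unadjusted p under 0.05.

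Of 12 linkers and chaperones, 8 were called higher and 2 lower, with a median of 0.46. Hspb1, a small heat shock protein that binds intermediate filaments, differed most: its levels were 7.70, 8.13, 7.37 and 7.53 in contused cords, against 5.53, 5.93, 5.69 and 5.05 in control cords (2.13 ± 0.22, adjusted p = 0.000250). Dsp, the gene of desmoplakin, which anchors filaments at cell junctions, was at 1.48 ± 0.13 from a low level. Cryab, the chaperone found with GFAP in Rosenthal fibres, was at 0.70 ± 0.06 and Plec (plectin, which cross-links filaments) at 0.28 ± 0.07. Evpl, the envoplakin gene, was called lower, at -0.47 ± 0.07.

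The list of kinases and proteases split along the roles of its members. Cdk1, Plk1 and Aurkb, mitotic kinases that phosphorylate vimentin, were called higher at 3.94 ± 0.47, 3.03 ± 0.33 and 2.39 ± 0.23, beside the rise of the markers of dividing cells. Casp6, a caspase that cuts filament proteins, was called higher at 1.01 ± 0.13, as was Capn2, a calpain subunit, at 0.68 ± 0.07. The neurofilament kinases Cdk5 and Gsk3b and the Cdk5 activator gene Cdk5r1 were called lower, at -0.38 ± 0.06, -0.46 ± 0.10 and -0.80 ± 0.08; for Gsk3b 3 control arrays had a value, the spot on control replicate 4 being an outlier that was left out. In all, 8 of 16 were called higher and 5 lower, with a median of 0.17.

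Of 12 regulators of the filament genes, 6 were called higher and 1 lower, with a median of 0.32. Over all mRNAs 51.1% were called, so calls were not much more common in this list than elsewhere. Stat3, which drives Gfap in reactive astrocytes, was at 0.79 ± 0.10, with levels of 5.94, 6.11, 6.05 and 6.06 in contused cords, against 5.30, 5.28, 5.44 and 4.96 in control cords. Sox9 and Sox2, transcription factors of glia and progenitors, were at 0.53 ± 0.07 and 0.44 ± 0.06, and Jun at 0.82 ± 0.07. The one called lower was Tardbp, whose protein TDP-43 binds neurofilament light mRNA, at -0.51 ± 0.08. Nfia and Nfix, which take part in astrocyte development, were at 0.05 ± 0.06 and 0.01 ± 0.09 and were not called.

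The motors and adaptors of axonal transport were called lower in 9 of 10 genes and higher in none, with a median of -0.56. The largest decrease was that of Dync1i1, a dynein intermediate chain, at -0.97 ± 0.09, and Kif5a, the kinesin heavy chain known to carry neurofilaments, was at -0.63 ± 0.11. Dync1h1 was not called (-0.19 ± 0.11, adjusted p = 0.215).

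**Figure D4:**
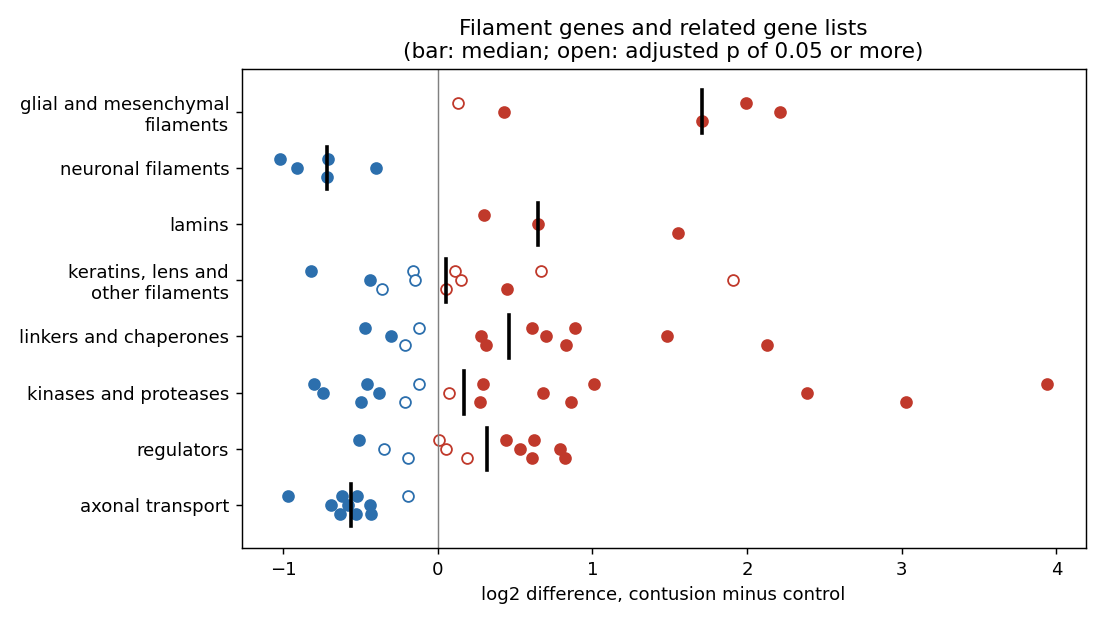
Log2 difference, contusion minus control, of each gene in the filament classes and in 6 lists of related genes; filled points have an adjusted p under 0.05, red is above 0 and blue below, and black bars are list medians. Lamins lie above 0 and axonal transport genes below it, while the keratin and lens list is centred on 0.05.

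The mRNAs whose levels followed a member most closely were looked up among 18180 mRNAs with a value on all 8 arrays, by the Pearson correlation after each group's mean was subtracted. For Gfap these were Iqcg, Sprr1a, Gnai2, Atf3 and Slc28a2b, at 0.969 to 0.987, and all were called higher, Sprr1a by 5.00 and Atf3 by 3.78. For Nefl they were Bcorl1, Aplp1, Paqr4, Olfr996 and Glud1, at 0.954 to 0.982, of which Aplp1, Paqr4 and Glud1 were called lower. For Des they were Slc19a3, Art1, Zscan29, Fchsd1 and Usp3, at 0.968 to 0.978, of which Zscan29 was called (0.51) and the other 4 were not. These values describe 8 arrays and carry no test.

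The arrays also hold probes for circular RNAs, which are named by position only. Of 37852 such positions 98.3% lay inside a gene of the GRCm38 table, against 40.8% after a shift, while the build of the names was not given in the sources used here. By position 24 circRNAs lay inside member genes and 23 were tested. Of these 18 were called higher and 4 lower (17 and 4 of the 21 that were well above background on all 8 arrays), against 16.2% and 25.7% of the 35615 circRNAs tested (41.9% called in all).

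The called circRNAs went the way of their gene's mRNA. All 11 at Vim were called higher, at 1.51 to 2.88. The one named chr2:13580018-13581698 had levels of 7.13, 7.38, 7.24 and 7.25 in contused cords, against 5.03, 4.38, 4.88 and 3.35 in control cords (2.84 ± 0.33, adjusted p = 0.000419). One of the 11 is named on the minus strand, opposite to Vim. Many of the 11 overlap each other, so that they are not 11 independent measurements.

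Both circRNAs at Gfap were called higher, at 1.09 ± 0.17 and 1.27 ± 0.16, and the one at Nes at 2.41 ± 0.24. At Des 3 circRNAs were well above background on all 8 arrays and were called higher, at 0.55 to 2.04. Another that was called was well above background on all 4 contused and no control cords, so it passed the filter only through the contused cords and is not used here. The brightest of the 3 had levels of 0.58, 0.81, 0.17 and -0.37 in contused cords, against -1.51, -2.21, -1.18 and -2.06 in control cords (2.04 ± 0.31, adjusted p = 0.00125), and all contused cords lay above all controls. Its differences were 2.40 on slide 1 and 1.71 on slide 2. The other 2 gave 2.93 on slide 1 and 1.24 on slide 2 (1.81 ± 0.36 in all), and 1.05 on slide 1 and 0.01 on slide 2 (0.55 ± 0.18 in all, with overlapping groups). The 3 at Nefl were called lower, at -0.99 to -0.75, and the 1 at Nefm at -0.53 ± 0.07. The Nefm circRNA is named on the plus strand, opposite to Nefm, and of those at Nefl 2 are named on the plus and 1 on the minus strand. None lay inside Synm, Nefh, Ina or Prph. Whether these probes also take up the linear mRNA of the same gene was not tested.

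**Figure D5:**
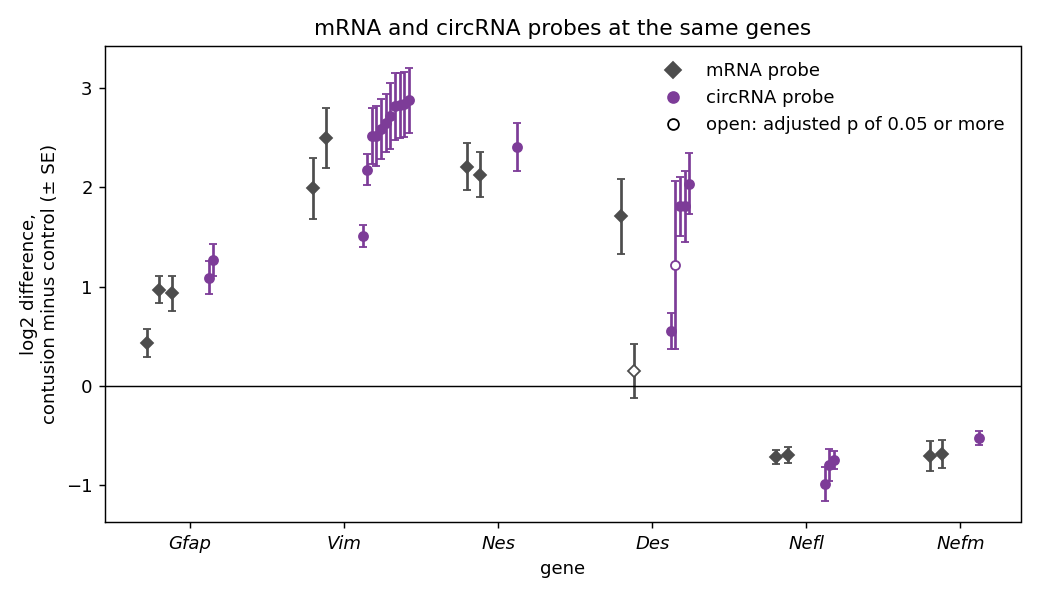
Log2 difference, contusion minus control, with its standard error for mRNA probes (grey diamonds) and circRNA probes (purple circles) at the 6 member genes that hold tested circRNAs; open symbols have an adjusted p of 0.05 or more. At each gene both kinds lie on the same side of 0, with 11 circRNAs at Vim between 1.51 and 2.88. The standard error of the dimmer Des mRNA probe reaches across 0. A filled Des circle stands for a circRNA that was well above background on contused cords only.

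Members that moved together were finally compared by the 250 bases before their start, which the RefSeq table of GRCm38.p6 gives for 7 of the 10 (Gfap, Vim, Nes, Synm, Des, Ina and Prph). Both strands were searched for the TATA box TATAAA, the CCAAT box CCAAT and the GC box GGGCGG, which are capitalized below wherever they occur and did not overlap each other, and for the STAT motif TTCNNNGAA, the AP-1 motif TGANTCA and the cyclic AMP response element TGACGTCA. The windows of 3 higher genes (Gfap, Vim and Nes) and 2 lower genes (Ina and Prph) are shown, at chr11:102897201-102897450 (minus strand), chr2:13574061-13574310, chr3:87970843-87971092, chr19:47014431-47014680 and chr15:99054924-99055173 (plus strand).
Gfap: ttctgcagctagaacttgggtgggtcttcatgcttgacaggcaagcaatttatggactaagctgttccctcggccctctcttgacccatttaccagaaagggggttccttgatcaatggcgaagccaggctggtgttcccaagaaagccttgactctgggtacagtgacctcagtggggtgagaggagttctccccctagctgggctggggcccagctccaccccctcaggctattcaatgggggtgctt
Vim: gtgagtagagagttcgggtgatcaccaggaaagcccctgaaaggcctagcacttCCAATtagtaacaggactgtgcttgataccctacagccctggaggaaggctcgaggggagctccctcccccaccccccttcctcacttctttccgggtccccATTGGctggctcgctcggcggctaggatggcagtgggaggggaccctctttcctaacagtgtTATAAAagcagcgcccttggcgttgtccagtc
Nes: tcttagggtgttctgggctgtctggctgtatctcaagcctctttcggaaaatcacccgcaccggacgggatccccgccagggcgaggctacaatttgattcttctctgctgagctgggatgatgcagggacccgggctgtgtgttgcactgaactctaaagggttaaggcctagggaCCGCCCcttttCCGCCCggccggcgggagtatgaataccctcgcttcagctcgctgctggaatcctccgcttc
Ina: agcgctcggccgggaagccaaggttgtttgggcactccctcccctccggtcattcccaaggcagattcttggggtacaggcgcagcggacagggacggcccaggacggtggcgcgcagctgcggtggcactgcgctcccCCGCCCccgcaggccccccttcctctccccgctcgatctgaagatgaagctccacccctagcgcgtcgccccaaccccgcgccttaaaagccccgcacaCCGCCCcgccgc
Prph: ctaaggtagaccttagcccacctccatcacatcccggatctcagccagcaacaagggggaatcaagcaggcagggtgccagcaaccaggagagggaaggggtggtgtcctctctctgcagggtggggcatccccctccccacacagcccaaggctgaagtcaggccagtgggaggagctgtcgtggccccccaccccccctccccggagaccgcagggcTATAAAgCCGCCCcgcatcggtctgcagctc

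The matches did not divide the genes as their differences did. TATAAA was found in Vim, 32 bases before the start, and in Prph, 31 bases before it, and in 12.4% of all 32851 windows of the table. CCAAT was found in Vim and Synm and in 33.8% of windows. GGGCGG was found in Nes, Des, Ina and Prph, in 32.7% of windows. TTCNNNGAA, TGANTCA and TGACGTCA were in none of the 7 windows, against 7.02%, 6.75% and 1.55% of all windows, which says only that these letters are not in these bases.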

How the data were processed

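Total RNA from spinal cord, 1 mouse per array, was labelled with Cy3, per the labels' protocols. Per the file headers, Agilent Feature Extraction subtracted background from spot intensities and detrended them, with no scaling across arrays. Version 10.7 and limma are named in the submitters' processing notes, while the headers' algorithm fields read 12.0.3.1. The authors' deposited series table holds log2 values; its slopes on the log2 scanner values were 0.983 to 1.02, and its columns nearly matched at the median (5.3993 to 5.3999) and at the 5th (0.2488 to 0.2575) and 95th percentile (11.4962 to 11.4977). It served as an alternative.

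Levels were log2 processed intensities less the 75th percentile of 150305 non-control probes, without 6 to 53 outlier spots per array. Of each array's probes 72.9% to 75.4% were well above background, the 75th percentile was 203.0 to 251.0, and no spot was saturated. Probes above background (well above, by the scanner flag) on 4 or more of 8 arrays were kept, and the one with the highest mean stood for a gene. Differences were fitted with limma 3.58.1 (R 4.3.3), two-sided, group as the only term, over 89105 features (99 lacking a value on an array), and probe by probe over all probes kept; the method was tested on simulated data. Ratios were compared by exact permutation tests. Precision is limited by the number of arrays.

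The members and lists were chosen with earlier results of these data known. All members are named; of related lists, called genes with an absolute difference of 1 or more and at least 2 others; for Gfap, Nefl and Des, the 5 most alike mRNAs. Some items of the lists are counted but not reported here by name. Samples with the same replicate number were not treated as pairs. Deviations of same-numbered arrays correlated at -0.24, 0.03, 0.06 and -0.17, which cannot show whether the samples had been paired. Figures were drawn with matplotlib.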

Additional observations from a re-analysis of the deposited data

Results flagged for a closer look

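In 2 of 44 groups of 4 arrays checked (22 probes in both groups), 1 array stood far from the rest, with a gap to its nearest neighbour over the group's range above Dixon's 95% critical value for 4 samples. Chance flags about 1 group in 20, so 2 of 44 is about the share that chance gives. On the Gfap probe designed to NM_001131020, control replicate 4 was at 6.35, against 6.91 to 6.96 on the other control arrays, a gap of 0.922 of the range. The same array was the lowest control for the other Gfap probes and for Vim and Nes. On the dimmer Nefl probe, contusion replicate 4 was at 7.51, against 7.71 to 7.74 on the other contusion arrays, a gap of 0.881 of the range. That array was also the lowest contused cord for the brightest probes of Nefm, Nefh, Ina and Prph.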

How the results depend on the processing

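Of the 10 genes, 7 (Vim, Nes, Des, Nefl, Nefm, Nefh and Ina) were called in all 19 alternative settings with a test, Prph in 15, Gfap in 7 and Synm in 1 (normexp and quantile normalization, 0.22, adjusted p = 0.0238). The number of members called was 7 to 9 when 1 array was left out, 7 with the slide as a block, 8 with the authors' series table, and 9 in the main analysis. Gfap ranged from 0.28 to 0.77 and Des from 0.64 to 1.91, with 0.77 and 0.93 when the probes of a gene were averaged, while no member changed sign. The dimmer Des probe, never called, was at -0.10 with the slide as a block and -0.11 to 0.29 when 1 array was left out, the lowest without control replicate 2. With the replicate number as a block, which the main fit did not use, 8 members and 7460 mRNAs were called, Gfap being lost (adjusted p = 0.0538). Over all mRNAs 7112 to 10495 were called, and with the slide as a block 55.3% of calls were higher, against 50.4%. Alternatives for probes, circRNAs and some lists were added after the data were seen. With 4 arrays per group, differences as small as that of Synm could not be settled. Among the contusion samples a described day later than 3 cannot be told apart from the slide.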
